A study of Mus musculus with 47 samples.

Results

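The 8 genes described here were listed together as transporters of leucine, isoleucine and valine, the branched-chain amino acids (BCAAs), across cell or mitochondrial membranes. Slc3a2 among them encodes a partner chain of carriers, and Slc38a2 a carrier of small neutral amino acids. The 8 genes were chosen by name, as Slc7a5, Slc7a8, Slc3a2, Slc43a1, Slc43a2, Slc6a15, Slc38a2 and Slc25a44, and all 8 were found among the 55416 Ensembl identifiers of each count table. All 8 passed the filter on low counts in both sexes, among 22197 genes tested in males and 20344 in females. The libraries were made from brain RNA of 3xTg mice, a model of Alzheimer's disease that carries human APP and tau transgenes and a mutated presenilin 1, and no library of a mouse without these alleles was used. From 6 months of age the mice were fed for 9 months one of 4 diets defined by their amino acids: the Control diet, or a diet low in 1 BCAA, which is isoleucine in IleR, leucine in LeuR and valine in ValR. Male libraries numbered 4 each for Control and ValR and 3 each for IleR and LeuR, and female libraries 6 each for Control, LeuR and ValR and 5 for IleR. The comparisons ask whether the transcripts of the carriers differ when a single BCAA is scarce in the diet. Each library has a number of its own, which is given after its diet below ("IleR 14").

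The carriers work in groups. Slc7a5 and Slc7a8 encode the light chains LAT1 and LAT2, which exchange large neutral amino acids across the plasma membrane, and each is joined to the heavy chain CD98 encoded by Slc3a2, without which it does not reach the cell surface. LAT1 is known for its high content in the capillary endothelium of the brain, where it brings leucine, isoleucine, valine and aromatic amino acids across the blood-brain barrier. Slc43a1 and Slc43a2 encode LAT3 and LAT4, which need no heavy chain and let neutral amino acids pass down their gradient. Slc6a15 encodes a sodium-driven carrier of neurons for proline and the BCAAs, and Slc38a2 encodes SNAT2, a sodium-driven carrier of small neutral amino acids whose transcript is known to increase in cells short of amino acids. Slc25a44 encodes the carrier that takes BCAAs into mitochondria, where they are oxidised.

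The genome sequence before the start site is shown for Slc7a8 and Slc38a2, because the former was called lower with all 3 restricted diets and the latter higher with ValR in male libraries. Both are from RefSeq on GRCm38.p6, read 5′ to 3′ on the minus strand, at chr14:54781947-54782136 for Slc7a8 and chr15:96699731-96699978 for Slc38a2, and they stop at the first base that GENCODE M21 places in an exon. Capitals mark the GC box, GGGCGG on either strand (CCGCCC where it lies on the other strand).
Slc7a8: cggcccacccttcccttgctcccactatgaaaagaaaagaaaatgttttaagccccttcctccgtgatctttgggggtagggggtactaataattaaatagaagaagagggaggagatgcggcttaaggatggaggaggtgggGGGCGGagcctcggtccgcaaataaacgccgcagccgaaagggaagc
Slc38a2: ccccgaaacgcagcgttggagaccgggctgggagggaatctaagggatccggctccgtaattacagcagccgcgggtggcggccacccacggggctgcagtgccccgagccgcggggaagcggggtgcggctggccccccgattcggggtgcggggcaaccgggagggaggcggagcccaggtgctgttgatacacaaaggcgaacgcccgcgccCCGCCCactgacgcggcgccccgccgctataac
RefSeq start sites were at hand for 5 of the 8 members, with 6 windows of 250 bases before a start. The GC box was found in all 6 of these windows and in 32.7% of the 32851 mouse promoter windows of the same length. CCAAT, which 33.8% of all windows hold, was found in the windows of Slc43a1 and Slc43a2, and the E-box CACGTG, in 6.02% of all windows, in that of Slc43a1. The letters TGATGNAA, a pattern of elements bound by C/EBP and ATF factors (3.45% of all windows), and TGACGTCA, the cAMP response element (1.55%), were in none of the 6 windows. Introns, exons after the start and bases farther upstream were not searched, so these members may hold either pattern elsewhere. Slc7a5, Slc6a15 and Slc25a44 had no window.

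Total counts ran from 12682687 to 25722333 per library in males and from 10672599 to 21370973 in females. Summed CPM (counts scaled to a common library size after TMM normalisation) of liver genes were at most 3.63 in males and 10.2 in females, although a label speaks of liver RNA, and Xist was at least 534 CPM in every female and at most 0.510 CPM in every male library. The libraries differed widely in transcripts of hindbrain and forebrain genes. A hindbrain score was taken as the mean log2 CPM of genes of cerebellum, brainstem and spinal cord after subtracting the mean of forebrain genes. In males it was −7.84 to −5.07 in the 4 Control libraries and −3.86 to 5.63 in the 10 libraries of the restricted diets, without overlap. In females it was −7.22 to 2.13 in Control and −6.95 to 5.83 in the restricted diets, so the groups overlapped widely. The score therefore moved with diet in males, and diet and hindbrain or forebrain content cannot be told apart there. In males the mean log2 CPM of forebrain genes was 5.27 to 6.89 in Control and 0.42 to 4.28 in the restricted diets, without overlap. That of cerebellum genes was 0.14 to 1.64 in Control and 1.39 to 8.54 in the restricted diets, where only LeuR 21 overlapped with Control. The endothelial score, the mean log2 CPM of 13 genes of capillary endothelium, overlapped between all diets in males (4.42 to 5.15). In females it ran from 4.16 to 4.54, and IleR (4.18 to 4.35) lay below ValR (4.35 to 4.52) without overlap, while each restricted diet overlapped with Control. Genes of other cell types also moved with diet in males, and their part in the results was not tested. The mean log2 CPM of astrocyte genes was 7.06 to 7.48 in Control, 7.71 to 7.74 in IleR, 7.26 to 7.61 in LeuR and 7.74 to 7.91 in ValR, so only LeuR overlapped with Control. That of microglial genes was 5.51 to 5.71 in Control, 4.94 to 5.63 in IleR, 5.29 to 5.38 in LeuR and 4.74 to 5.37 in ValR, so only IleR overlapped with Control. The ranges of oligodendrocyte genes (8.22 to 9.30 in Control and 8.73 to 10.0 over the restricted diets) and of genes common to neurons (8.84 to 9.25 and 8.62 to 9.00) overlapped between Control and each restricted diet. For neuronal genes this overlap rested on Control 4 (8.84), as the other Control libraries had 9.15 to 9.25. For oligodendrocyte genes with IleR and ValR it rested on Control 5 (9.30). As the tissue was sequenced in bulk, fewer cells of a type and less RNA per cell cannot be told apart.

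Compared per length of exon, as RPKM (CPM per 1000 bases), the heavy chain gene Slc3a2 was the highest of the 8 members in both sexes. Its level was 33.8 ± 3.39 RPKM in males (SD, n = 14) and 31.4 ± 3.02 in females (SD, n = 23). The light chain gene Slc7a5 followed in males with 26.6 ± 4.70 RPKM, and its gap to Slc38a2 (23.4 ± 5.21) and from there to Slc25a44 (21.4 ± 4.02) was smaller than the spread between libraries. In females Slc25a44 (25.8 ± 3.14 RPKM) stood above Slc7a5 (22.2 ± 3.37), which stood above Slc38a2 (17.4 ± 3.59). In males Slc43a2, Slc7a8 and Slc6a15 made up a lower tier, with 12.2 ± 2.52, 10.9 ± 3.46 and 8.14 ± 0.688 RPKM and gaps no larger than the spread. In females Slc7a8 (15.3 ± 3.42 RPKM) differed from Slc38a2 by less than the spread and stood above Slc43a2 (9.42 ± 2.42), which differed from Slc6a15 (7.47 ± 0.600) by less than the spread. Slc43a1 was almost absent, at 0.0484 ± 0.0439 RPKM in males and 0.0410 ± 0.0215 in females, with 0 to 19 counts per library. The 7 other members had at least 436 counts in every library. The order of Slc38a2, Slc7a5 and Slc25a44 depends on the length used, since the longest transcript of Slc38a2 gives 33.8 RPKM in males.

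**Figure D1:**
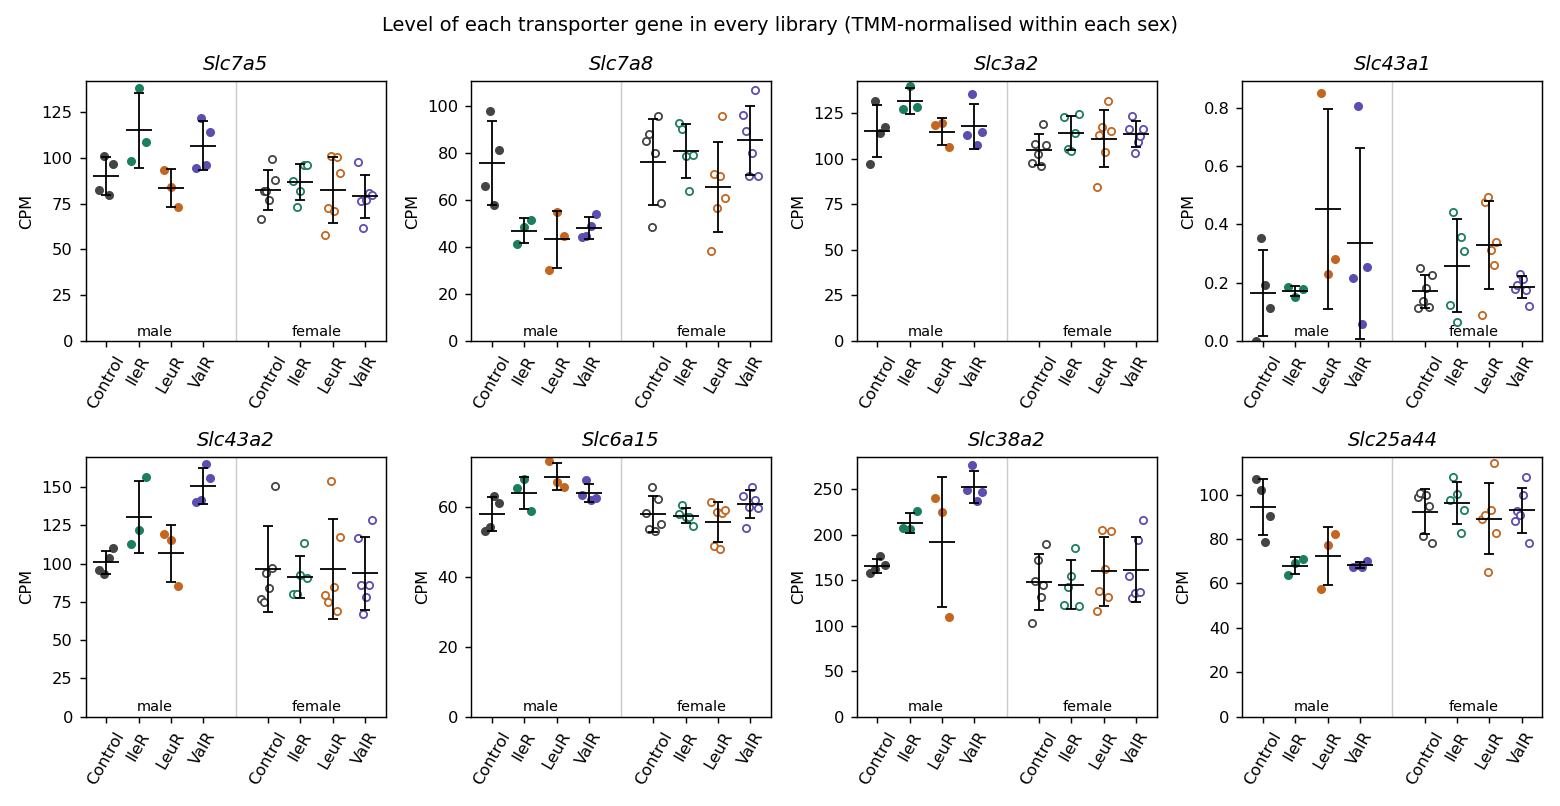
Level of each member in every library, in CPM on a linear axis from 0, with male libraries (filled) on the left and female libraries (open) on the right of each panel. Bars give the mean and SD of a diet group. In males Slc7a8 lies below Control in all 3 restricted diets, and Slc43a2 and Slc38a2 lie above Control in IleR and ValR.

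In male libraries Slc7a8 fell with every restricted diet, Slc25a44 fell with IleR and ValR, and Slc43a2 and Slc38a2 rose with ValR. Calls were made at an adjusted p under 0.05 (edgeR, quasi-likelihood, Benjamini-Hochberg over all genes tested), which 15.3% of all genes passed for IleR, 10.1% for LeuR and 23.5% for ValR. IleR had 0 members higher and 2 of 8 lower, where 6.63% of all genes tested were called higher and 8.68% lower. LeuR had 0 members higher and 1 lower, beside 3.81% and 6.33% of all genes. ValR had 2 higher and 2 lower, beside 11.1% and 12.4% of all genes. These counts use TMM scaling. With library totals in its place IleR had 2 members higher and 0 lower, where 2425 of 22197 genes were called higher and 1458 lower. The 3 comparisons share the same 4 Control libraries. The median log2 fold change of the 8 members was 0.17, 0.04 and 0.19 for the 3 diets in that order, and over all genes tested it was 0.04, 0.05 and 0.03. Groups that did not overlap with Control were as follows. In IleR every library was above every Control library for Slc43a2 and Slc38a2 and below for Slc7a8 and Slc25a44, as it was for 14.8% and 14.5% of all genes. In ValR the same held for the same 4 members, beside 12.7% and 13.6% of all genes. In LeuR every library was above Control for Slc6a15 and below for Slc7a8, beside 8.21% and 9.48% of all genes.

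**Figure D2:**
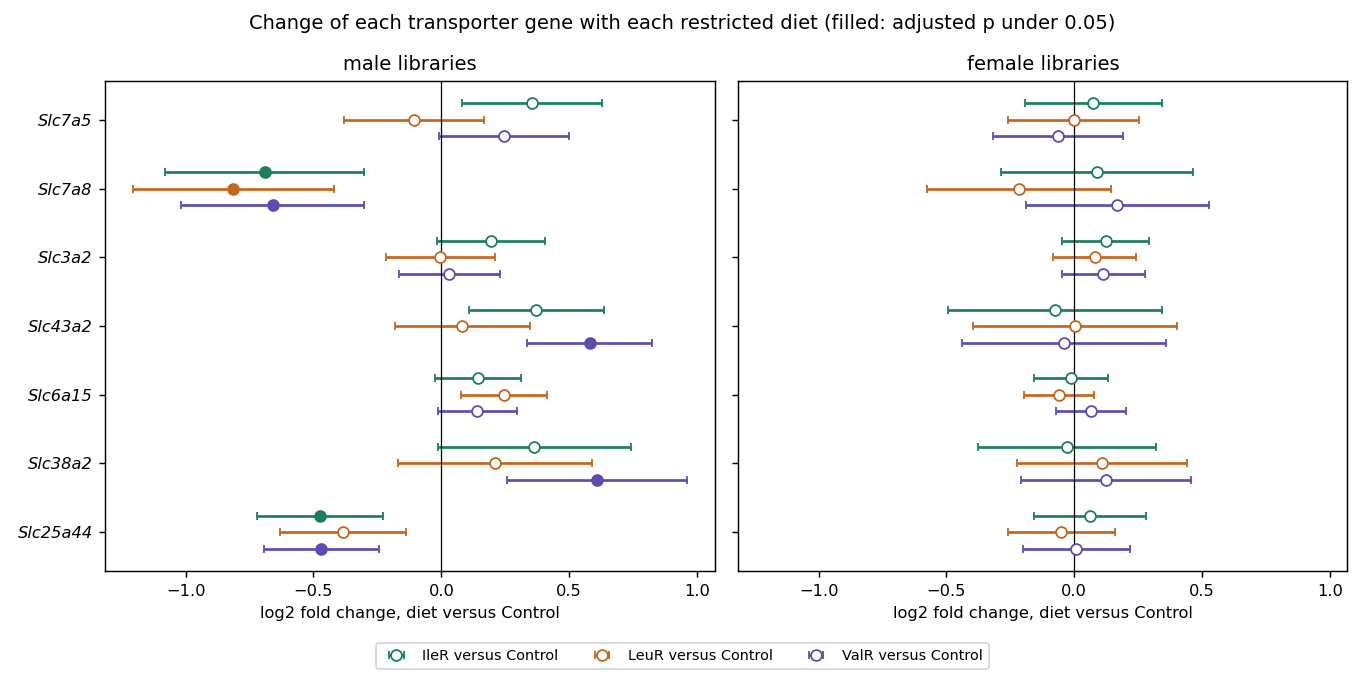
Log2 fold change of 7 members against Control for each restricted diet, males on the left and females on the right, with bars for the 95% interval. Filled points have an adjusted p under 0.05, which 7 comparisons in males and none in females reached. Slc43a1 is left out for its low counts.

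Slc7a8, the LAT2 light chain gene, was the member that edgeR called with all 3 diets. The gene is on chromosome 14 (54722209 to 54781946, minus strand, GRCm38, ENSMUSG00000022180). Its level in the Control libraries 1, 3, 4 and 5 was 65.9, 97.9, 57.7 and 81.4 CPM. In IleR 13, 14 and 17 it was 41.2, 48.3 and 51.2 CPM, in LeuR 19, 20 and 21 it was 30.4, 54.7 and 44.5 CPM, and in ValR 7, 9, 10 and 12 it was 44.0, 44.8, 49.0 and 54.0 CPM. All 10 libraries of the restricted diets were below all 4 Control libraries, and the gap between LeuR 20 and Control 4 was narrow. Its log2 fold change was −0.69 ± 0.20 (SE) for IleR, −0.81 ± 0.20 for LeuR and −0.66 ± 0.18 for ValR, with edgeR adjusted p of 0.0318, 0.0234 and 0.0187. Several of these calls missed the threshold when 1 library was left out, while the differences stayed at −0.54 to −0.77 for IleR, −0.61 to −0.78 for LeuR and −0.51 and −0.62 for ValR. The edgeR adjusted p of IleR was 0.0602 to 0.108 without Control 3, Control 5, IleR 13, IleR 14 or IleR 17, that of LeuR 0.0555 to 0.103 without Control 3, Control 5 or LeuR 19, and that of ValR 0.0540 without ValR 7 and 0.0648 without Control 3. Scaling to the library totals gave an edgeR adjusted p of 0.0610 for IleR, and the fit of the LeuR and Control libraries alone gave 0.121 for LeuR. That last fit called 0 of 21015 genes. With the hindbrain score in the model the differences were −0.08 ± 0.45, −0.38 ± 0.35 and 0.065 ± 0.51 (SE), and none was called.

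Slc7a5, the LAT1 light chain gene, was not called by edgeR in any diet with TMM scaling. The gene is on chromosome 8 (121881150 to 121907694, minus strand, ENSMUSG00000040010). Its level was 82.3, 101, 80.0 and 96.8 CPM in the 4 Control libraries and 98.6, 138 and 108 CPM in IleR 13, 14 and 17. IleR 14 had the highest value of all male libraries, while IleR 13 lay below Control 3. In LeuR it was 93.6, 84.1 and 73.1 CPM and in ValR 94.6, 122, 95.9 and 114 CPM, both overlapping with Control. The log2 fold change was 0.35 ± 0.14 (SE) for IleR, −0.11 ± 0.14 for LeuR and 0.24 ± 0.13 for ValR, with edgeR adjusted p of 0.105, 0.667 and 0.202. Scaling to the library totals in place of TMM gave 0.48 ± 0.13 and an edgeR adjusted p of 0.0232 for IleR.

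Slc3a2, the heavy chain gene that both light chains need, was not called in any diet. Its place is chromosome 19 (8706882 to 8723369, minus strand, ENSMUSG00000010095). In males it ranged from 97.2 CPM in Control 1 to 140 CPM in IleR 14, and the Control libraries (97.2, 132, 114 and 117 CPM) overlapped with those of every diet. Its log2 fold change was 0.19 ± 0.11 (SE) for IleR, −0.0042 ± 0.11 for LeuR and 0.03 ± 0.10 for ValR, with edgeR adjusted p of 0.254, 0.988 and 0.865. The 95% interval of the ValR difference was −0.17 to 0.23. The RPKM ratio of Slc7a5 to Slc7a8, a description with no test, was 1.39 to 1.87 in the male Control libraries and 2.64 to 3.67 in ValR, 2.86 to 3.85 in IleR and 2.07 to 4.16 in LeuR. In females the ratio was 1.06 to 2.29 in Control and 1.02 to 2.42 in the restricted diets.

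**Figure D3:**
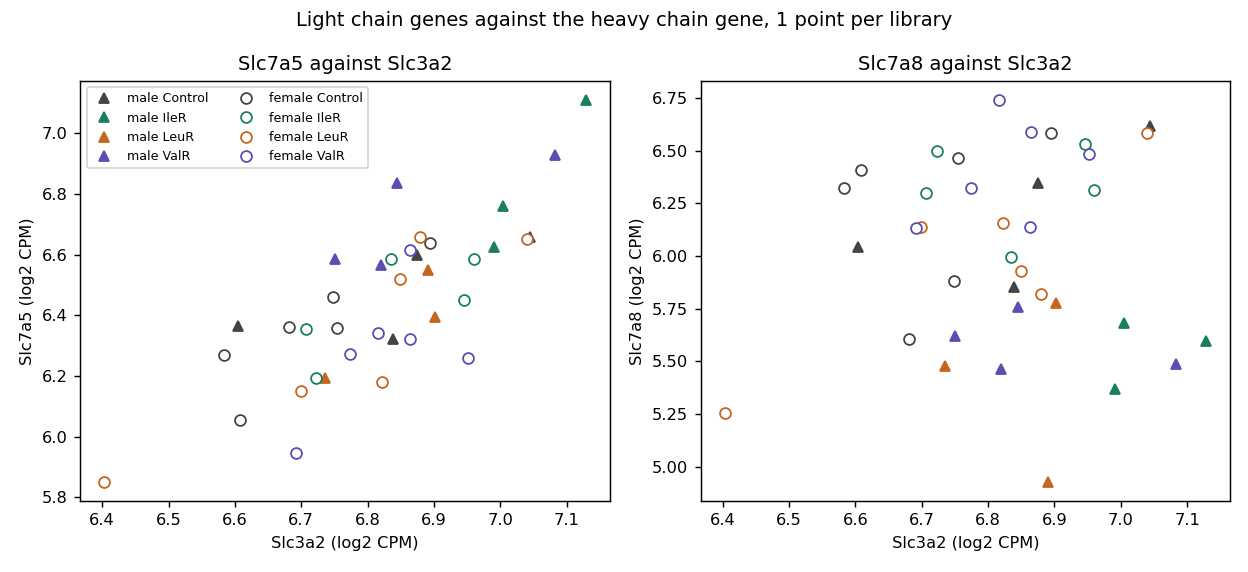
Log2 CPM of the light chain genes Slc7a5 (left) and Slc7a8 (right) against that of the heavy chain gene Slc3a2, 1 point per library, triangles for males, circles for females and a colour per diet. Slc7a5 increases with Slc3a2 over the libraries of each sex, and the male libraries of the restricted diets lie low in the Slc7a8 panel.

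Slc43a2, which encodes LAT4, rose with valine restriction. The gene is on chromosome 11 (75531694 to 75577575, plus strand, ENSMUSG00000038178). Its level was 95.8, 93.5, 103 and 110 CPM in the male Control libraries and 140, 141, 165 and 156 CPM in ValR 7, 9, 10 and 12. It was 113, 122 and 157 CPM in IleR and 119, 116 and 85.3 CPM in LeuR, where LeuR 21 alone lay below Control. The log2 fold change was 0.58 ± 0.13 (SE) for ValR, with an edgeR adjusted p of 0.00466, and this call held whichever library was left out. It was 0.37 ± 0.13 for IleR and 0.08 ± 0.13 for LeuR, with edgeR adjusted p of 0.0799 and 0.737, and the IleR difference was called without LeuR 21 (0.38 ± 0.11, adjusted p 0.0311) and with library totals (0.50 ± 0.14, 0.0283). With the hindbrain score in the model the ValR difference was −0.12 ± 0.30 (SE). Of its exon bases, 922 also belong to the antisense gene Gm45606, and whether the counting used the strand is not given in the sources used here.

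Slc43a1, which encodes LAT3, was too low for a comparison. It lies on chromosome 2 (84838850 to 84863594, plus strand, ENSMUSG00000027075). Male libraries had 0, 6, 3 and 2 counts in Control, 3, 4 and 3 in IleR, 19, 3 and 5 in LeuR and 3, 12, 1 and 4 in ValR. LeuR 19 and ValR 9 stood above the rest. Female libraries had 1 to 8 counts. No difference between diets was called in either sex, and what could be detected at such counts was not tested.

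Slc38a2, which encodes SNAT2, rose with valine restriction and was above every male Control library in every male library of the restricted diets but LeuR 21. It lies on chromosome 15 (96687392 to 96699730, minus strand, ENSMUSG00000022462). Its level was 158, 163, 176 and 167 CPM in the male Control libraries and 250, 277, 237 and 247 CPM in ValR 7, 9, 10 and 12. It was 207, 207 and 226 CPM in IleR, and 241, 225 and 109 CPM in LeuR 19, 20 and 21. LeuR 21 had the lowest value of all male libraries and also the lowest hindbrain score of the restricted diets, −3.86. For Slc38a2 the log2 fold change was 0.61 ± 0.18 (SE) for ValR, 0.36 ± 0.19 for IleR and 0.21 ± 0.19 for LeuR, with edgeR adjusted p of 0.0261, 0.232 and 0.521. Much of this spread came from LeuR 21: without it the differences were 0.37 ± 0.08 for IleR and 0.51 ± 0.09 for LeuR, with edgeR adjusted p of 0.00624 and 0.00453. The fit of the IleR and Control libraries alone also called the IleR difference (0.36 ± 0.08, edgeR adjusted p 0.0252). The ValR call had an adjusted p of 0.0521 to 0.0669 when Control 1, Control 3, Control 5, ValR 7, ValR 9 or ValR 12 was left out, with differences of 0.56 to 0.62. With the hindbrain score in the model the differences were −0.79 ± 0.33 (SE) for ValR, −0.80 ± 0.29 for IleR and −0.72 ± 0.24 for LeuR, and none was called.

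Slc6a15, the carrier of neurons, was not called by edgeR with TMM scaling in any diet, and ranged from 53.1 to 73.0 CPM in males. It lies on chromosome 10 (103367783 to 103419377, plus strand, ENSMUSG00000019894). It was 53.1, 54.2, 63.0 and 61.0 CPM in Control and 73.0, 67.0 and 65.7 CPM in LeuR 19, 20 and 21, without overlap. The log2 fold change for LeuR was 0.25 ± 0.09 (SE) with an edgeR adjusted p of 0.0825. It was called without Control 4 (0.29 ± 0.09, adjusted p 0.0375), by edgeR with library totals (0.34 ± 0.10, 0.0482) and by DESeq2 (0.24 ± 0.09, 0.0425). IleR (0.14 ± 0.09) and ValR (0.14 ± 0.08) had edgeR adjusted p of 0.288 and 0.227.

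Slc25a44, the mitochondrial BCAA carrier, was called lower by edgeR with IleR and ValR, and with LeuR in some fits. It lies on chromosome 3 (88410498 to 88425139, minus strand, ENSMUSG00000050144). Its level was 107, 102, 78.5 and 90.3 CPM in the male Control libraries, 63.6, 69.3 and 71.0 CPM in IleR and 67.4, 68.1, 67.5 and 70.0 CPM in ValR. The ValR libraries lay within a few CPM of each other, all below Control. In LeuR it was 57.6, 77.3 and 82.2 CPM, and LeuR 21 overlapped with Control. Its log2 fold change was −0.47 ± 0.13 (SE) for IleR, −0.38 ± 0.13 for LeuR and −0.47 ± 0.12 for ValR, with edgeR adjusted p of 0.0218, 0.0667 and 0.010. The ValR call held whichever library was left out, while the IleR call had an adjusted p of 0.0620 to 0.0703 without Control 1, Control 3, IleR 13 or IleR 14, with differences of −0.41 to −0.49, and of 0.0618 with library totals (−0.34 ± 0.12). The LeuR difference was called by DESeq2 (−0.39 ± 0.14, adjusted p 0.0277), and by edgeR with the endothelial score (−0.31 ± 0.08, 0.0346), without Control 4 (−0.46 ± 0.12, 0.0183) and without LeuR 21 (−0.47 ± 0.13, 0.0326). With the hindbrain score in the model the differences were 0.14 ± 0.22 for IleR and 0.26 ± 0.25 for ValR (SE).

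Across the 4 diets in males, 3 of 8 members differed (Slc43a2, Slc7a8 and Slc25a44, with edgeR adjusted p of 0.0165, 0.0207 and 0.0241), beside 19.3% of all genes tested. Between the restricted diets themselves no member was called by edgeR. For ValR against LeuR, 2.75% of all genes were called (1.73% higher and 1.03% lower), and 2 of 8 members had an unadjusted p under 0.05. The member with the lowest p there was Slc43a2, with a difference of 0.50 ± 0.14 (SE) with an adjusted p of 0.0600, and DESeq2 gave an adjusted p of 0.0109 for it. It was called by edgeR without ValR 9 or IleR 17 (adjusted p 0.0457 and 0.0496). For IleR against LeuR 0% of all genes were called and 1 member had an unadjusted p under 0.05, which was Slc7a5 (0.46 ± 0.15, edgeR adjusted p 0.356). For ValR against IleR 0% of all genes were called and 0 members had an unadjusted p under 0.05. The shares of all genes in these comparisons are at adjusted p, and those at unadjusted p are not reported here. Apart from Slc43a2 between ValR and LeuR with DESeq2 or without ValR 9 or IleR 17, a member called with 1 diet and not with another was therefore not shown to differ between the diets.

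In female libraries no member was called in any diet, and 0% of all genes tested were called in each of the 3 comparisons with Control. For a difference between any of the diets 0 members were called, beside 0.0197% of all genes. At an unadjusted p under 0.05 there were 0 of 8 members for IleR, 1 for LeuR (Slc43a1) and 0 for ValR, without the share of all genes at that cut. DESeq2 and limma voom called 0 members as well. No member had groups without overlap. Slc7a8 had a lowest, median and highest level of 48.5, 82.4 and 95.7 CPM in Control, 38.1, 65.5 and 95.8 CPM in LeuR and 70.0, 84.7 and 107 CPM in ValR, and its 5 IleR libraries had 92.5, 90.2, 78.7, 63.8 and 79.3 CPM. Its log2 fold change was 0.09 ± 0.19 (SE) for IleR, −0.22 ± 0.18 for LeuR and 0.17 ± 0.18 for ValR. Slc25a44 had a lowest, median and highest level of 77.9, 96.9 and 101 CPM in Control and 78.2, 91.5 and 108 CPM in ValR, with a difference of 0.01 ± 0.11 (95% interval −0.20 to 0.22). For Slc43a2 these were 75.2, 89.0 and 151 CPM in Control and 66.8, 85.9 and 128 CPM in ValR, with a difference of −0.04 ± 0.20 (95% interval −0.44 to 0.36). For Slc38a2 they were 103, 147 and 190 CPM in Control and 131, 145 and 217 CPM in ValR, with a difference of 0.12 ± 0.17 (95% interval −0.21 to 0.45). The intervals of Slc43a2 and Slc38a2 were wider than that of Slc25a44.

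The diet effects of the sexes were compared directly in 1 model of all 37 libraries. No member was called, where 0.0979% of all genes were called for IleR, 0.00445% for LeuR and 4.25% for ValR (3.57% with the male effect below the female effect). For ValR the male effect minus the female effect was −0.85 ± 0.28 (log2, SE) for Slc7a8 and −0.49 ± 0.16 for Slc25a44, with edgeR adjusted p of 0.0645 and 0.0639. At an unadjusted p under 0.05 there were 2 members for IleR, 1 for LeuR and 3 for ValR. The share of all genes at this unadjusted cut is not reported here, so these counts are a description only. Both Slc7a8 and Slc25a44 passed the threshold for ValR in DESeq2 (0.0361 and 0.0416), in the fit of the ValR and Control libraries alone (0.0434 and 0.0336) and without male Control 4 (0.0472 and 0.0442), female ValR 36 (0.0455 and 0.0410) or female LeuR 47 (0.0499 and 0.0475). Leaving out female LeuR 43 gave an edgeR adjusted p of 0.0493 for Slc7a8, and leaving out female LeuR 45 gave 0.0470 for Slc25a44. For IleR the difference of Slc25a44, −0.54 ± 0.17 (edgeR adjusted p 0.107), passed in DESeq2 (0.0438) and without male Control 4 (0.0453). Adding the hindbrain score gave −0.41 ± 0.31 for Slc7a8 and 0.03 ± 0.13 for Slc25a44 with ValR (SE, edgeR adjusted p 0.803 and 0.980), and 0%, 0.904% and 0% of all genes were called for IleR, LeuR and ValR. The count tables of the sexes are separate, so sex and table cannot be told apart.

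Since the hindbrain score overlapped between the diets in females, those libraries show how the members vary with it apart from diet. Slc43a2, Slc38a2 and Slc25a44 varied most. Pearson's r of log2 CPM with the score over 23 female libraries was 0.92 for Slc43a2, 0.78 for Slc38a2 and −0.81 for Slc25a44, with Spearman's rho of 0.85, 0.72 and −0.68. Of 16 relations (8 members and 2 scores, permutation test with 100000 resamples, two-sided, Benjamini-Hochberg adjusted), these 3 had an adjusted p of 0.00016 for r, from raw p of 1e-05, the smallest the test can give, 3e-05 and 2e-05. The adjusted p for rho were 0.00032, 0.00136 and 0.00304. They held without the 2 libraries farthest from the median score, LeuR 45 and Control 30, with r of 0.89, 0.74 and −0.68, and with diet means removed, with r of 0.93, 0.79 and −0.81. The female libraries with the highest scores, LeuR 45 (5.83) and Control 30 (2.13), also had the highest Slc43a2 levels, 154 and 151 CPM, on 2 different diets.

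Slc7a5 had r = 0.56 and rho = 0.58 with the hindbrain score (adjusted permutation p 0.0223 and 0.0162), and with diet means removed r was 0.60 and rho 0.65 (0.011 and 0.00372). Without these 2 libraries r was 0.50 with an adjusted permutation p of 0.0740, so the call, more than the size of r, rests on them. Slc7a8 (r = −0.37), Slc3a2 (0.27), Slc6a15 (0.20) and Slc43a1 (0.12) had adjusted permutation p of 0.217 to 0.657. Slc7a8, the member called in all 3 diets of the males, was therefore not shown to vary with the score in females. With the endothelial score only Slc38a2 had an adjusted permutation p under 0.05 (r = 0.54, rho = 0.52, adjusted p 0.0248 and 0.0378), and without the 2 libraries farthest in that score (Control 25 and Control 26) r was 0.50 with an adjusted p of 0.0740. In males the members were tested against neither score, and the hindbrain score and diet go together there.

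**Figure D4:**
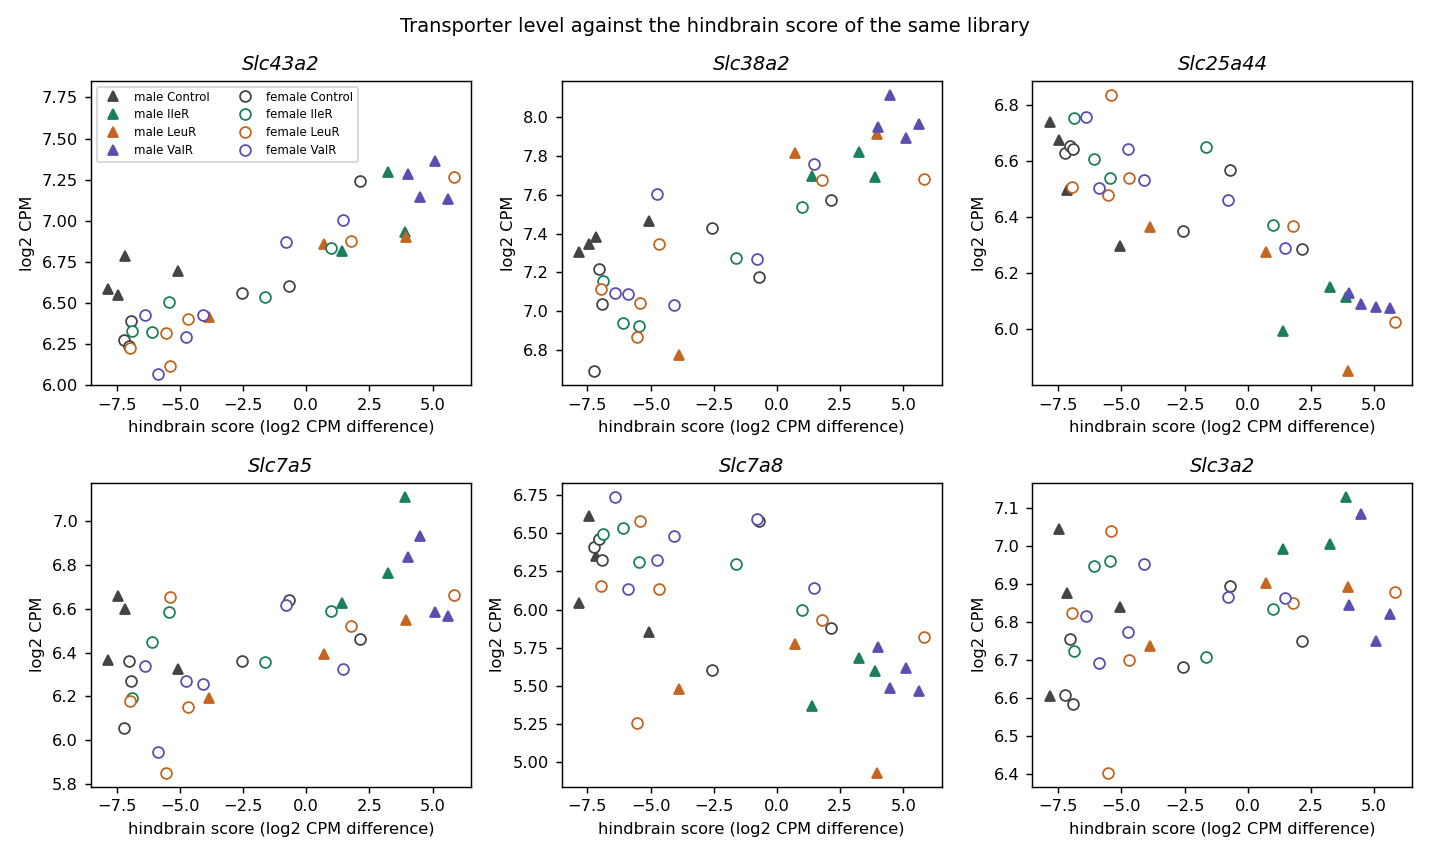
Log2 CPM of 6 members against the hindbrain score of the same library, in log2 units, triangles for males and circles for females, coloured by diet. Over the female libraries Slc43a2 and Slc38a2 increase and Slc25a44 decreases with the score. The 4 male Control libraries lie at the left and all 10 male libraries of the restricted diets to their right. The sexes were normalised apart.

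With the hindbrain score as a covariate no member was called in males in any of the 3 diets (edgeR), where 0.0135%, 0.0586% and 0% of all genes tested were. At an unadjusted p under 0.05 there was 1 of 8 members in each diet, Slc38a2, and the share of all genes at that cut was not computed for this fit. The direction of 5 of the 7 called differences turned, namely Slc25a44 with IleR and all 4 called with ValR. The standard errors of the 7 differences were 0.22 to 0.51 with the score, against 0.12 to 0.20 without it. In females, where the score varies within each diet, no member was called either. For Slc43a2 with ValR the difference was −0.06 ± 0.08 (SE) with the score against −0.04 ± 0.20 without it, and for Slc25a44 0.02 ± 0.07 against 0.01 ± 0.11. With the endothelial score as a covariate all 7 differences in males were still called.

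**Figure D5:**
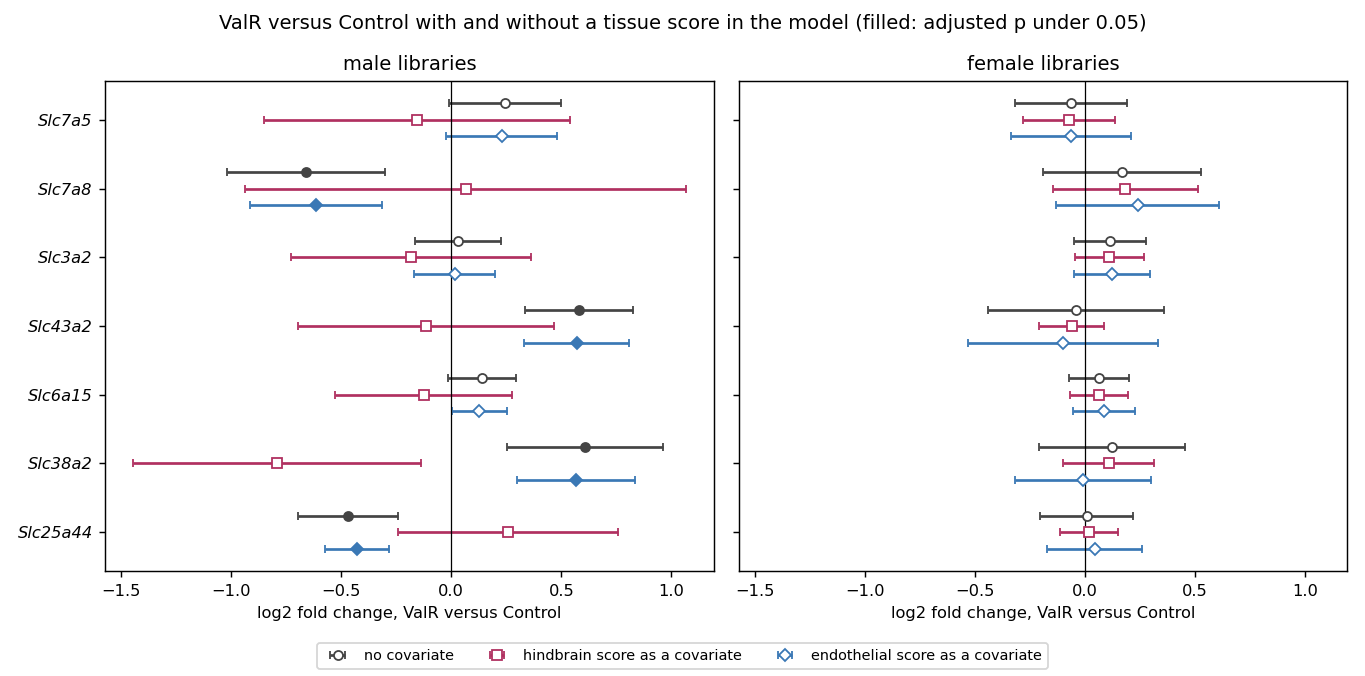
Log2 fold change of 7 members for ValR against Control without a covariate, with the hindbrain score and with the endothelial score in the model, males on the left and females on the right, with bars for the 95% interval and filled points for an adjusted p under 0.05. In males the 4 filled points without a covariate are filled with the endothelial score and open, with wide bars, with the hindbrain score.

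Of the 28 pairs of members, 4 had an adjusted p of r under 0.05 in both sexes. Slc43a2, Slc38a2, Slc25a44 and Slc7a5 also varied with the hindbrain score in females, and the pairs were not tested apart from that score. Slc43a2 and Slc25a44 had the lowest r in females (−0.80, adjusted permutation p 0.00028), but were not called in males (−0.63, 0.0651). The light chain gene Slc7a5 and the heavy chain gene Slc3a2 had r = 0.75 and rho = 0.68 over the 23 female libraries (permutation p adjusted over 28 pairs 0.00028 and 0.00378) and r = 0.75 and rho = 0.76 over the 14 male libraries (0.0114 and 0.0164). With diet means removed r was 0.82 in females and 0.75 in males, and without the 2 libraries farthest in Slc7a5 it was 0.65 (adjusted permutation p 0.0103) in females and 0.62 (0.179) in males, so in males it rests in part on those libraries. Slc7a8 and Slc25a44 had r = 0.66 and rho = 0.72 in females (adjusted permutation p 0.00595 and 0.00378) and r = 0.86 and rho = 0.85 in males (0.00308 and 0.00448). Without the 2 farthest libraries r was 0.80 and 0.76, with adjusted permutation p of 0.00028 and 0.0651. Slc43a2 and Slc38a2 had r = 0.71 and rho = 0.62 in females (adjusted permutation p 0.00149 and 0.0132) and r = 0.85 and rho = 0.84 in males (0.00168 and 0.00448), and without the 2 farthest libraries 0.64 and 0.84 (0.0113 and 0.0238). For rho without the 2 farthest libraries, the adjusted permutation p in females was 0.0631 for Slc7a5 and Slc3a2 (rho = 0.61) and 0.101 for Slc43a2 and Slc38a2 (0.53). With diet means removed in males, r was 0.71 for Slc7a8 and Slc25a44 and 0.67 for Slc43a2 and Slc38a2 (adjusted permutation p 0.0279 and 0.0449), but the adjusted permutation p of rho were 0.119 and 0.258. Slc38a2 and Slc25a44 varied in opposite directions, with r = −0.63 and rho = −0.50 in females (adjusted permutation p 0.0075 and 0.0781) and r = −0.68 and rho = −0.76 in males (0.0341 and 0.0164). Without the 2 farthest libraries their r was −0.49 and −0.77 (adjusted permutation p 0.0989 and 0.0416), and with diet means removed −0.63 and −0.55 (0.00655 and 0.193), so each sex lost the call in 1 of these. Slc7a8 was not shown to vary with the other light chain gene (r = 0.28 in females and −0.05 in males). With the heavy chain gene Slc3a2 it had r = 0.52 in females (adjusted permutation p 0.043, and 0.188 for rho = 0.42) and −0.02 in males (0.942), and without the 2 farthest female libraries r was 0.31 (0.387), so the relation in females rests on them.

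The genes whose levels were most like those of each member, by Pearson's r over the libraries of a sex and with no test, were mostly not amino acid carriers. For Slc3a2 in females Slc7a5 ranked 2nd of 13886 genes (r = 0.75), after Inhbb (0.79), which encodes an inhibin subunit. For Slc7a5 in males the nearest gene of 13995 was Lars (0.89), the cytosolic leucyl-tRNA synthetase, and in females Carmil2 (0.85). For Slc43a2 the gene Cerk, ceramide kinase, was 2nd in males (0.96) and 1st in females (0.97), and Jup was 1st in males (0.97). For Slc7a8 they were Inafm2 (0.97) in males and Slc17a7 (0.90), a vesicular glutamate transporter, in females. For Slc25a44 they were Rasgef1a (0.97) in males and Atp6v1g2 (0.96), a neuronal proton pump subunit, in females. For Slc6a15 they were Tmem117 (0.95) in males and Tm9sf4 (0.72) in females. Slc43a1 was too low to be ranked.

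Among 30 other carriers of neutral and cationic amino acids, of which 28 were tested, 4 rose and 2 fell with IleR in males, 1 rose and 2 fell with LeuR, and 4 rose and 3 fell with ValR. Of all genes tested 6.63%, 3.81% and 11.1% were called higher and 8.68%, 6.33% and 12.4% lower with these diets, and several of the counts are near these shares. Once the hindbrain score was in the model, 0 genes of any kind were called lower with any diet in males, and 3, 13 and 0 higher with IleR, LeuR and ValR, so the calls lower in this list and those below were all lost, and so were all calls with ValR. Their median log2 fold change was 0.01, 0.18 and −0.03. Slc38a1, the close relative of Slc38a2, was 240 to 351 CPM in Control and 439 to 525 CPM in IleR, with a log2 fold change of 0.79 ± 0.14 (SE, edgeR adjusted p 0.00269), and 0.77 ± 0.13 with ValR (0.00103). Slc7a2, a carrier of cationic amino acids, rose by 0.80 ± 0.22 with IleR (0.0263) and by 0.84 ± 0.21 with ValR (0.010), and Slc7a10, an alanine-serine-cysteine exchanger that also pairs with the heavy chain of Slc3a2, rose by 0.94 ± 0.19 with LeuR (edgeR adjusted p 0.0107). Slc7a4 fell with all 3 diets, from 51.1 to 78.1 CPM in Control to 23.5 to 25.2 CPM in ValR (−1.34 ± 0.18, edgeR adjusted p 0.000286). It fell by 1.25 with IleR and by 0.75 with LeuR. Slc6a17, a carrier of synaptic vesicles and the closest relative of Slc6a15, was −0.56 ± 0.15 with IleR, −0.63 ± 0.15 with LeuR and −0.68 ± 0.14 with ValR (edgeR adjusted p 0.0223, 0.0201 and 0.00300). Slc7a11, the cystine-glutamate exchanger, was −0.82 ± 0.15 with ValR (0.00183). Slc6a17 and Slc7a11 also differed between the sexes for ValR (male minus female −0.70 ± 0.21 and −1.34 ± 0.25, edgeR adjusted p 0.0477 and 0.00785), a comparison in which 0 genes were called with the hindbrain score in the model. In females 0 of 28 were called with any diet.

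Of the 8 genes for the first steps of BCAA breakdown, 0 rose and 1 fell with IleR in males, 1 rose and 1 fell with LeuR, and 2 rose and 1 fell with ValR, with medians of 0.11, 0.11 and 0.19. Of all genes 6.63%, 3.81% and 11.1% were called higher and 8.68%, 6.33% and 12.4% lower with the 3 diets. The gene that fell in each was Ppm1k, the phosphatase that activates the branched-chain ketoacid dehydrogenase. It was 73.0 to 86.8 CPM in Control and 49.0 to 63.3 CPM over the restricted diets, with log2 fold changes of −0.55 ± 0.09 with IleR, −0.62 ± 0.09 with LeuR and −0.47 ± 0.08 with ValR (edgeR adjusted p 0.00176, 0.00359 and 0.00116), and none of these was called with the hindbrain score in the model. Bckdha, a subunit of that dehydrogenase, rose by 0.29 ± 0.09 with LeuR and 0.37 ± 0.08 with ValR (edgeR adjusted p 0.0456 and 0.00461), and Bckdk, its inhibitory kinase, rose by 0.21 ± 0.07 with ValR (0.0449). Bcat1 and Bcat2, the transaminases, were not called.

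Of 20 genes of the amino acid response, the programme of ATF4 targets to which Slc38a2, Slc7a5 and Slc3a2 also belong, 10 rose with IleR in males, 0 with LeuR and 5 with ValR, and none fell, where 6.63%, 3.81% and 11.1% of all genes were called higher. When the hindbrain score was included, 3 genes in all were called with IleR and 0 with ValR, so most of the calls of this list with IleR and all those with ValR were lost. Their median log2 fold change was 0.50, 0.02 and 0.20. Aldh1l2, a mitochondrial enzyme of folate metabolism, was 5.38 to 10.2 CPM in Control and 20.2 to 25.9 CPM in IleR (log2 fold change 1.66 ± 0.26, edgeR adjusted p 0.00166). Stc2 rose by 1.25 ± 0.22 and Mthfd2 by 1.20 ± 0.26 with IleR (edgeR adjusted p 0.00296 and 0.00768). With ValR Aldh1l2 rose by 1.30 ± 0.25, Mthfd2 by 0.81 ± 0.24 and Ddit4 by 0.69 ± 0.18 (0.00228, 0.0285 and 0.0139). For ValR against IleR 0 of 20 were called, and for IleR against LeuR 0% of all genes tested. The larger count with IleR is therefore not shown to be a difference from ValR or from LeuR. In females 0 of 20 were called with any diet. Ddit4 also differed between the sexes for ValR (male minus female 0.88 ± 0.24, edgeR adjusted p 0.0354), but was not called with the hindbrain score in the model.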

How the data were processed

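Gene expression was measured by RNA-seq of brain RNA in 37 of 47 labelled libraries, 14 male and 23 female; 10 male libraries were not analysed here, as no count column was mapped to them. Per the labels, the authors deposited 1 table of expected counts per gene and sex, made on GRCm38.p5, and their notes name R 3.4.3, edgeR and limma; the aligner and the use of strand in counting are not given in the sources used here. Expected counts were rounded (3.69 to 4.93% of values per library were not whole). A gene was tested in a sex where all libraries of 1 or more diets had a count of 1 or more, TMM factors were computed within each sex, and edgeR 4.0.16 (R 4.3.3) quasi-likelihood tests were fitted on all diets of a sex, with Benjamini-Hochberg adjustment over all genes tested and a threshold of 0.05. CPM use the TMM library sizes, log2 CPM a prior count of 2, and RPKM the union exon length of GENCODE M21. Alternatives were DESeq2 1.42.0, limma 3.58.1 (voom), other size factors, filters and thresholds, tissue scores as covariates, and leaving out each library. Correlations used permutation tests (scipy 1.17.1, 100000 resamples, two-sided). The nearest genes are the 3 with the highest Pearson r among genes whose log2 CPM averaged 1 or more. Named genes are the 8 members, those nearest genes, and in each other list up to 3 called genes with the largest absolute change per comparison. Some of the nearest genes are not reported here. Scripts were tested on simulated data. The members and gene lists were chosen with earlier results of these data known. The study gives its RNA-seq group sizes in mice, and each library was taken as 1 mouse, although the labels name no mouse for a library. The sizes it gives for males are above those of IleR and LeuR here. It also removed clear outliers after a principal component analysis, and does not name them. Replicates were compared by chi-square over genes, and none agreed within sampling noise.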

Additional observations from a re-analysis of the deposited data

Results flagged for a closer look

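Of 48 pairs of a member and a group of 4 to 6 libraries, 1 held a library far from the others by Dixon's test, which chance gives in about 1 in 20 groups. Slc43a2 in female Control was 151 CPM in Control 30 and 75.2 to 97.0 CPM in the other libraries of the 6, and the gap on the log2 scale was 0.634 of the whole range. Control 30 also had the highest hindbrain score of its group (2.13), and the part of that score in the value was not tested.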

How the results depend on the processing

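No paired analysis was possible because each library has a number of its own that no other group shares. All 7 called differences in males kept their direction and their call with DESeq2, limma voom, RLE size factors, other filters and the endothelial score. With the hindbrain score none of the 7 was called, and 5 turned: Slc25a44 to 0.14 with IleR and 0.26 with ValR, Slc7a8 to 0.065, Slc43a2 to −0.12 and Slc38a2 to −0.79 with ValR. That score gave 0 members for any diet (3 in the fit of the report), and 0 lower with IleR and LeuR, and 0 higher and 0 lower with ValR. Library totals in place of TMM gave 2 higher and 0 lower with IleR and 1 higher with LeuR. The balance over all 22197 genes turned as well: 2425 were called higher and 1458 lower with IleR, against 1472 and 1926 with TMM. With LeuR 1235 were called higher and 1087 lower, against 845 and 1404 with TMM. The groups compared alone gave 1 higher with IleR, 0 lower with LeuR and 2 diet by sex differences for ValR. In these fits 15.3%, 0% and 7.96% of all genes were called in either direction. DESeq2 gave 1 higher and 2 lower with LeuR, and 1 for ValR against LeuR. It also gave 1 (IleR) and 2 (ValR) diet by sex differences. DESeq2 called more genes of all kinds: with LeuR 1496 higher and 2115 lower, against 845 and 1404 with edgeR. For ValR against LeuR it called 2547 genes, against 611. For diet by sex it called 1042 (IleR) and 2368 (ValR) of 22465 genes, against 22 and 955. The endothelial score gave 2 lower with LeuR and 2 diet by sex differences for ValR. With that score 1434 genes were called lower with LeuR and 1470 for ValR by sex. At an adjusted p under 0.01 there were 0 for any diet, 0 lower with each diet, and 1 higher with ValR. The causes were not tested. Leaving out 1 library gave 0 to 2 higher and 0 to 2 lower with IleR, 0 to 1 higher and 0 to 2 lower with LeuR, 1 to 2 higher and 1 to 2 lower with ValR, 1 to 4 for any diet in males, 0 to 1 for ValR against LeuR, and 0 to 1 (IleR) and 0 to 2 (ValR) diet by sex differences. Without Control 3 or Control 5, 1 member was called for any diet. The length of the longest transcript moved 9 of 16 mean levels beyond their SD.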
